A study of Rattus norvegicus with 6 samples.

Results

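Transcripts of the hypoxia-inducible factors (HIF) and of the proteins that sense oxygen for them were measured in chondrocytes (cartilage cells) of the rat mandibular condyle, the jaw's joint head. The 9 genes were taken by symbol from the deposited counts of 17954 genes: the alpha subunits Hif1a, Epas1 and Hif3a, their partner Arnt, the prolyl hydroxylases Egln1, Egln2 and Egln3, the ubiquitin ligase subunit Vhl and the asparaginyl hydroxylase Hif1an. All 9 were found, and 8 had enough counts to be tested. One group held 3 libraries of cells in 2D culture, grown in DMEM plus antibiotics and 20% fetal bovine serum (FBS), and the other held 3 libraries of condylar cartilage organoids, kept in a chondrogenic medium. Both were kept at 37C with 5% CO2, and the labels name no oxygen level. Culture format and medium differed together and cannot be told apart. The labels name no strain, sex or age and do not say that replicates are separate animals or cultures. The p-values therefore reflect only how these libraries vary, and that variation may be technical.

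In cells with oxygen, the EGLN enzymes hydroxylate prolines of the HIF alpha subunits, the VHL protein binds the hydroxylated subunit, and the proteasome degrades it. HIF1AN, which also needs oxygen, limits the recruitment of coactivators. When oxygen is short, both limits ease, and alpha subunits persist, pair with ARNT and switch on genes for glycolysis, oxygen delivery and matrix enzymes. Growth cartilage has no blood vessels, and HIF-1 alpha is known to be required for the survival of its chondrocytes. Most of this control acts on protein, which mRNA counts do not measure.

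Total estimated counts were 18592574 to 26472447 per library. Levels are given in CPM (counts scaled to the library's TMM-adjusted size), with means ± SD over n = 3 libraries. A log2 fold change compares organoid with 2D culture and carries its SE. Called genes passed edgeR's quasi-likelihood test over 13052 genes, with an adjusted p below 0.05. The organoid libraries differed more among themselves than the 2D libraries did (median SD of log2 CPM over tested genes 0.689 against 0.137). For each gene edgeR estimated a spread shared by both groups, so its p-values do not measure the organoids' own spread. Of 10 chondrocyte markers tested, 9 rose in organoids and 1, Acan, missed the threshold. Their summed level was 2751 to 2803 CPM over the 2D libraries, where Col2a1, the main cartilage collagen, was at only 4.01 ± 1.01 CPM. In organoid 1, 2 and 3 the sum was 111968, 14997 and 35538 CPM. All 7 osteoblast markers rose too, from a sum of 208 to 220 CPM to 12536 to 20504 CPM, and 5 of 6 smooth muscle markers fell, from 3611 to 3889 CPM to 34.0 to 63.5 CPM. Over all tested genes 14.9% were higher and 12.6% lower. Without their organoid counts, Col9a1, Col11a2, Matn3, Dmp1 and Mepe could not have passed the low-count filter. Cnn1, Actg2, Acta2 and Myh11 could not have passed it without 2D culture. The filter thus favoured these calls. The part of these cell type markers in the results below was not tested.

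Egln3 and Egln1 rose steeply in organoids, Hif1a and Epas1 rose by less, and Egln2, Arnt, Vhl and Hif1an did not pass the test. Of the 8 members tested, 4 were called, all 4 higher, and 0 were lower. Egln2 was the 1 member below 2D culture at an unadjusted p under 0.05. DESeq2 and limma-voom each called it lower, but limma-voom with a weight per group did not. Over all tested genes 27.5% were called, 14.9% higher and 12.6% lower. The groups did not overlap for 5 of the 8 members, Hif1a, Epas1, Egln1, Egln2 and Egln3, beside 53.5% of all tested genes. Egln3 passed the low-count filter only through its organoid counts, so it had to differ between the groups. Without 2D culture 1, 2 or 3, and without organoid 1 or 3, the number called higher was 2, namely Egln1 and Egln3. Without organoid 2 it was 5, with Arnt added.

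**Figure D1:**
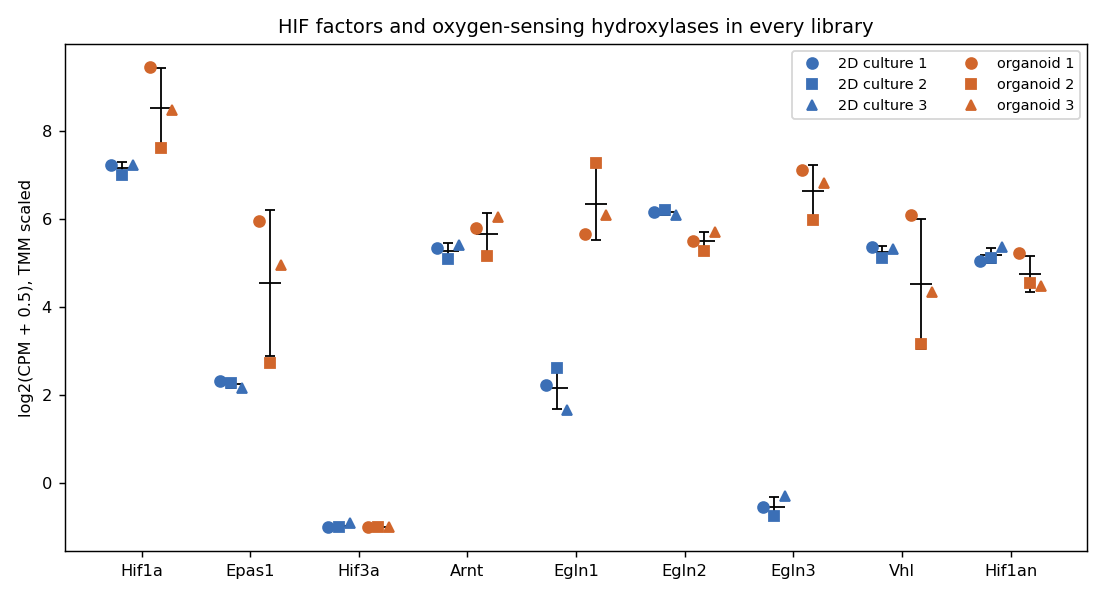
Level of each of the 9 genes in every library, as log2(CPM + 0.5), with 2D culture in blue, organoids in orange and the mean ± SD of each group in black. Egln1 and Egln3 were far apart between groups, Hif3a lay at the floor in both, and organoid 2 was the lowest organoid for Hif1a, Epas1 and Vhl and the highest for Egln1.

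The promoters of the 4 called genes and of Egln2, the prolyl hydroxylase whose level was lower without passing, are shown because the HIF complex acts through a short DNA motif, the hypoxia response element, and HIF target genes include hydroxylases. Sequences are RefSeq's for GRCr8, from 250 bases before to 50 bases after the annotated start, read 5′ to 3′ on the gene's strand. Capitals mark the core of the element, searched as ACGTG and as GCGTG on both strands, so that CACGT and CACGC also count and both strands of CACGTG overlap. Hif1a lies at chr6:98359648-98359947 (+), Epas1 at chr6:13624680-13624979 (-), Egln1 at chr19:69804632-69804931 (-), Egln2 at chr1:91586936-91587235 (-) and Egln3 at chr6:77410966-77411265 (-).
Hif1a: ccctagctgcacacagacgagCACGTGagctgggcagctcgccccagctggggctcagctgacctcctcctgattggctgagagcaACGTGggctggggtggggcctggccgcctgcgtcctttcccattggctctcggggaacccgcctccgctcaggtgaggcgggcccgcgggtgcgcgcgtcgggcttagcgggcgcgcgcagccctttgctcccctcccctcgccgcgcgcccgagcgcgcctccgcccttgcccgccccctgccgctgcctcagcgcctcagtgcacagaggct
Epas1: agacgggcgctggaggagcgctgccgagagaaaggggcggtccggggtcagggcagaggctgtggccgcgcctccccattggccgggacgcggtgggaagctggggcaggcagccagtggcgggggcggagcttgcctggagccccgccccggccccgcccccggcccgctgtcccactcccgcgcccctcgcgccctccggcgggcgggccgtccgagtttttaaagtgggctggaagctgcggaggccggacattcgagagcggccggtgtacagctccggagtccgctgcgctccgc
Egln1: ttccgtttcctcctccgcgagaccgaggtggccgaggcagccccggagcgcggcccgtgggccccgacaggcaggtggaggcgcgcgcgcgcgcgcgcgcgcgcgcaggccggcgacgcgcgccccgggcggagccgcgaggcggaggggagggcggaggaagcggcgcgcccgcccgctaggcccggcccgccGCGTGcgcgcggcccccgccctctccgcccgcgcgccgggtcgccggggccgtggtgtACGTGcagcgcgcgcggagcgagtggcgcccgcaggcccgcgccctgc
Egln2: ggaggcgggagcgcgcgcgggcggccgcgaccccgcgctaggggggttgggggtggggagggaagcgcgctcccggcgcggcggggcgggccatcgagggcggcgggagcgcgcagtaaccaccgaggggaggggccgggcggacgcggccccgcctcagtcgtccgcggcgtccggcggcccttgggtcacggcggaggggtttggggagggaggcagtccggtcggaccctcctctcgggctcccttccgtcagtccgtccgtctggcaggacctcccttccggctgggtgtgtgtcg
Egln3: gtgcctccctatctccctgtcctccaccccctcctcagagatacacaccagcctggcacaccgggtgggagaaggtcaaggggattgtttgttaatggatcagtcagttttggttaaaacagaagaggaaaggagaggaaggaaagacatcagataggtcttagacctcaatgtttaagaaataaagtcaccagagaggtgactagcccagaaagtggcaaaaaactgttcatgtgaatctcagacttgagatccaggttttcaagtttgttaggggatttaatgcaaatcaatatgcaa

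The Hif1a window held 3 matches, all ACGTG, of which a pair overlaps on both strands of 1 CACGTG. The Egln1 window held 1 ACGTG, which begins at base 3 with the start as base 1, and 1 GCGTG, which begins 56 bases before it. Neither motif stood in the windows of Epas1, Egln2 and Egln3, and that of Egln3, the gene with the largest rise, had the lowest GC content of the members, 44.7% beside 84.7% for Egln1. Among all 10 windows of the 9 members (Hif3a has 2 annotated starts), 4 held a match, those of Hif1a, Egln1, Arnt and the first Hif3a start. Over 33469 rat promoter windows of the same length, 41.6% held either motif, 19.3% held ACGTG and 29.7% held GCGTG. The share rose with GC content, from 26.99% of windows with 40 to 50% GC to 71.5% of those with 70 to 80% GC, and was 54.7% between 80 and 90%. These matches are descriptions of letters in a short window, and elements elsewhere in a gene were not searched.

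**Figure D2:**
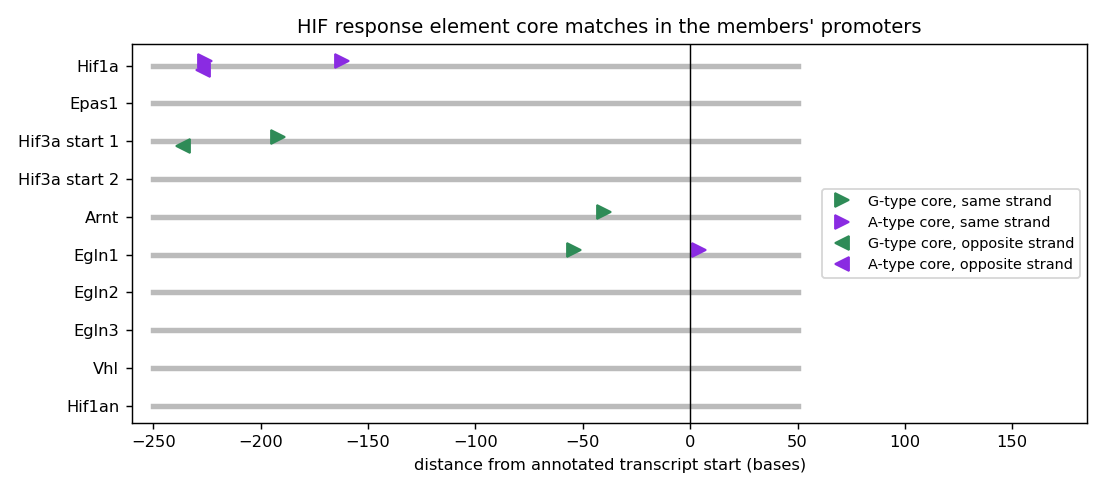
Positions of the searched motifs in the promoter windows of the 9 genes, as distance in bases from the annotated transcript start (vertical line), with ACGTG (A-type core) in purple and GCGTG (G-type core) in green, and arrowheads for the strand. Windows of Hif1a, Egln1, Arnt and the first Hif3a start held matches, and the other 6 windows held none.

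Among the alpha subunits, Hif1a (gene ID 29560), which encodes the broadly expressed HIF-1 alpha, stood at 149, 126 and 148 CPM in 2D culture 1, 2 and 3. In organoid 1, 2 and 3 it stood at 695, 195 and 355 CPM. Every organoid was above every 2D culture, and organoid 2 lay closest to them. The mean went from 141 ± 13.0 to 415 ± 256 CPM, a log2 fold change of 1.56 ± 0.45 (edgeR adjusted p = 0.0438). The call was close to the threshold. It was lost without 2D culture 1, 2 or 3 (adjusted p = 0.142 to 0.154), without organoid 1 (0.99, adjusted p = 0.0613) or organoid 3 (adjusted p = 0.0638), with no low-count filter (adjusted p = 0.0535), and when scaling used total library size instead of TMM (0.85, adjusted p = 0.101).

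Epas1 (gene ID 29452) encodes HIF-2 alpha, the alpha subunit tied to chondrocyte hypertrophy and cartilage breakdown, and is also abundant in endothelium. It stood at 4.44, 4.31 and 3.93 CPM in 2D culture and at 61.3, 6.07 and 30.2 CPM in organoids. The 2D libraries were nearly equal, while organoid 1 was 10.1 times organoid 2. Organoid 2 exceeded the highest 2D culture only slightly. The mean was 4.23 ± 0.266 CPM in 2D culture and 32.5 ± 27.7 CPM in organoids, a rise of 2.94 ± 0.77 on the log2 scale (edgeR adjusted p = 0.0316). The call was lost without 2D culture 1, 2 or 3 (adjusted p = 0.111 to 0.120), without organoid 1 (2.14, adjusted p = 0.0742) or organoid 3 (adjusted p = 0.0529) and with limma-voom (adjusted p = 0.0892).

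Because Epas1 marks endothelium, the endothelial marker list stands beside it. Of 9 endothelial markers in the files 3 were tested, 2 rose (Cldn5 and Esam, 66.7%, beside 14.9% of all tested genes) and 1 did not pass. Neither Cldn5 nor Esam could have passed the low-count filter without its organoid counts, which favoured both calls. The summed level of the 9 markers was 0.797 to 1.27 CPM in 2D culture and 58.4, 24.3 and 12.4 CPM in organoid 1, 2 and 3, most of it Esam. Cdh5, the cadherin that defines endothelium, had 0 counts in all 2D libraries and in organoid 2 and 3, and 14 counts in organoid 1. Pecam1 had 8 counts in organoid 1 and 0 in organoid 2 and 3, and Kdr, the VEGF receptor, had 0 counts in all 3 organoids. Esam had 896, 294 and 199 counts in organoid 1, 2 and 3 and 8 to 18 counts in 2D libraries, and Cldn5 had 15, 70 and 60 counts in organoids and 0 in 2D culture. The part of endothelial RNA in the Epas1 result was not tested. In bulk libraries, a change in the share of cells of a type and a change in RNA per cell cannot be told apart.

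Hif3a (gene ID 64345), whose shorter forms inhibit the other alpha subunits, was not detected at this depth beyond 1 count in 2D culture 3. The limit that a count of 0 allows, 3 counts, corresponds to 0.0917 to 0.180 CPM in a library. No fold is given, since both groups lie under that limit.

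Arnt (gene ID 25242), the constitutive partner of every HIF alpha subunit, stood at 40.1, 33.2 and 42.0 CPM in 2D culture and at 54.7, 35.03 and 65.4 CPM in organoids. The groups overlapped through organoid 2. The means were 38.4 ± 4.61 and 51.7 ± 15.4 CPM, and the difference did not pass (0.43 ± 0.28, edgeR adjusted p = 0.300). Leaving out organoid 2 brought it past the threshold (0.69, adjusted p = 0.0279). Scaling by total library size, which moved the median log2 fold change of all genes from -0.03 to -0.65, turned its sign (-0.20, adjusted p = 0.637).

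Egln3 (gene ID 54702), a prolyl hydroxylase that is itself a known HIF target, had the largest change of the family. It had 6, 3 and 10 counts in 2D culture 1, 2 and 3, which is 0.184, 0.0917 and 0.310 CPM. In organoid 1, 2 and 3 it had 2309, 1033 and 2361 counts, which is 136, 62.1 and 112 CPM. The 2D libraries held a trace and all organoids held far more, within 2.19 times of each other. The log2 fold change was 9.01 ± 0.58 (edgeR adjusted p = 0.000337), rank 105 of all tested genes by absolute change. The ratio of pooled levels was 535-fold (95% exact interval 343 to 890, counting error only).

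Egln1 (gene ID 308913), known as the main HIF prolyl hydroxylase under normal oxygen and also a HIF target, stood at 4.17, 5.62 and 2.63 CPM in 2D culture. It stood at 49.96, 154 and 67.7 CPM in organoids. All organoids were above all 2D libraries, and here organoid 2 was the highest. The mean went from 4.14 ± 1.497 to 90.6 ± 55.7 CPM, a log2 fold change of 4.45 ± 0.56 (edgeR adjusted p = 0.00282). Egln1 and Egln3 passed in all 13 alternatives, with log2 fold changes of 3.87 to 4.75 for Egln1 and 8.36 to 9.48 for Egln3.

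Egln2 (gene ID 308457), the third prolyl hydroxylase, which is not known to be induced by low oxygen, stood at 70.1, 72.7 and 67.4 CPM in 2D culture. In organoids it stood at 44.4, 37.7 and 51.7 CPM. Every organoid was below every 2D library, and both groups were tight. The difference narrowly missed the threshold (70.1 ± 2.66 and 44.6 ± 7.0 CPM, -0.65 ± 0.20, edgeR adjusted p = 0.0541). It passed with DESeq2 (adjusted p = 0.0204), with limma-voom (adjusted p = 0.0369), without organoid 2 (adjusted p = 0.0347) or organoid 3 (adjusted p = 0.0260), and under scaling by total library size (-1.27, adjusted p = 0.00867). In edgeR it did not pass without 2D culture 1, 2 or 3 (adjusted p = 0.170 to 0.191) or without organoid 1 (adjusted p = 0.0798). Nor did it pass there with no low-count filter (adjusted p = 0.0605) or with DESeq2 size factors (adjusted p = 0.0614). With limma-voom and a weight per group it did not pass either (adjusted p = 0.0982).

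Vhl (gene ID 24874), which recognises hydroxylated HIF alpha and brings it to the proteasome, stood at 40.2, 33.7 and 39.0 CPM in 2D culture and at 67.5, 8.41 and 19.6 CPM in organoids. Organoid 1 lay above all 2D libraries and organoids 2 and 3 lay below them. The highest organoid was 8.02 times the lowest. The difference did not pass (37.6 ± 3.42 and 31.8 ± 31.4 CPM, -0.24 ± 0.69, edgeR adjusted p = 0.824), and its sign turned without organoid 2 (0.26) and without organoid 3 (0.01).

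Hif1an (gene ID 309434), the asparaginyl hydroxylase that blocks coactivator binding, stood at 32.4, 34.0 and 40.7 CPM in 2D culture and at 36.5, 22.6 and 21.7 CPM in organoids. Organoid 1 lay within the 2D range and organoids 2 and 3 lay below it. The difference did not pass (-0.41 ± 0.28, edgeR adjusted p = 0.326), except under scaling by total library size (-1.07, adjusted p = 0.0167). Its count was fractional in all 6 libraries, a sign of reads shared with another gene, so its level is uncertain.

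**Figure D3:**
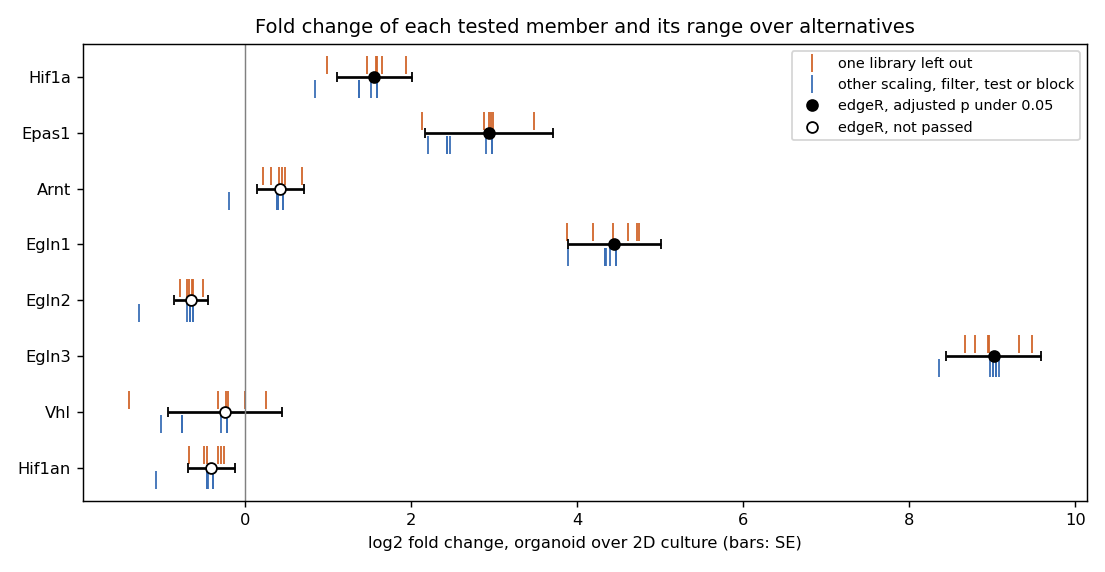
Log2 fold change of each tested member, organoid over 2D culture, with its SE, filled where the adjusted p was under 0.05. Ticks above give the values with 1 library left out, and ticks below those with another scaling, filter, test or block. Egln1 and Egln3 stay far from 0 throughout, while Vhl spans 0 and Arnt crosses it in 1 setting.

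The organoids did not rank alike over the family. Organoid 2 was the lowest organoid for 6 of the 8 tested members, Hif1a, Epas1, Arnt, Egln2, Egln3 and Vhl, and the highest for Egln1. Organoid 1 was the highest for Hif1a, Epas1, Egln3, Vhl and Hif1an. Organoid 2 also had the fewest counts in all (18592574) and the lowest chondrocyte marker sum. The part of depth and of cell make-up in this order was not tested.

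Ratios of counts within a library do not depend on library scaling, and gene length cancels in their change. The log2 differences and permutation tests used ratios with 0.5 added to each count, while the ratios printed have nothing added. Egln3 to Egln2 differed most. In 2D libraries 1, 2 and 3 the ratio of their counts was 0.00262, 0.00126 and 0.00459. The organoids had ratios of 3.07, 1.65 and 2.16, a difference of 9.67 on the log2 scale. Egln2 to Egln1 went from 16.8, 12.9 and 25.6 to 0.888, 0.245 and 0.764, a difference of -5.01. In counts not corrected for length, Egln2 thus exceeded both other prolyl hydroxylases in every 2D library and neither of them in any organoid. Egln3 to Egln1 was 0.0441, 0.0163 and 0.118 in 2D culture and 2.72, 0.403 and 1.65 in organoids, with organoid 2 lowest.

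Vhl, Hif1an and Arnt had lower counts relative to Hif1a in every organoid than in any 2D library. Vhl to Hif1a was 0.269, 0.268 and 0.264 in 2D culture and 0.0970, 0.0432 and 0.0552 in organoids, a difference of -2.12 on the log2 scale. Although Vhl alone overlapped between the groups, this ratio did not. Hif1an to Hif1a differed by -1.81 and Arnt to Hif1a by -0.98 on the log2 scale, both without overlap. Epas1 to Hif1a was 0.0298, 0.0342 and 0.0266 in 2D culture and 0.0882, 0.0312 and 0.0852 in organoids. Organoids 1 and 3 were higher and organoid 2 lay within the 2D range. Of 8 ratios examined, 6 had no overlap. Each of these 6 had a two-sided exact permutation p = 0.1, the smallest that 3 against 3 libraries allow (Benjamini-Hochberg adjusted 0.133). The ratios share members and are not separate results, and Hif1a, Egln1, Egln2 and Egln3 did not overlap when taken alone. Among all tested genes taken alone, 53.5% did not overlap, and no such share was computed for ratios. Epas1 to Hif1a had an exact permutation p = 0.2 (adjusted 0.229), and Hif3a to Hif1a, which rests on 1 count and on the 0.5 added, had p = 0.3.

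**Figure D4:**
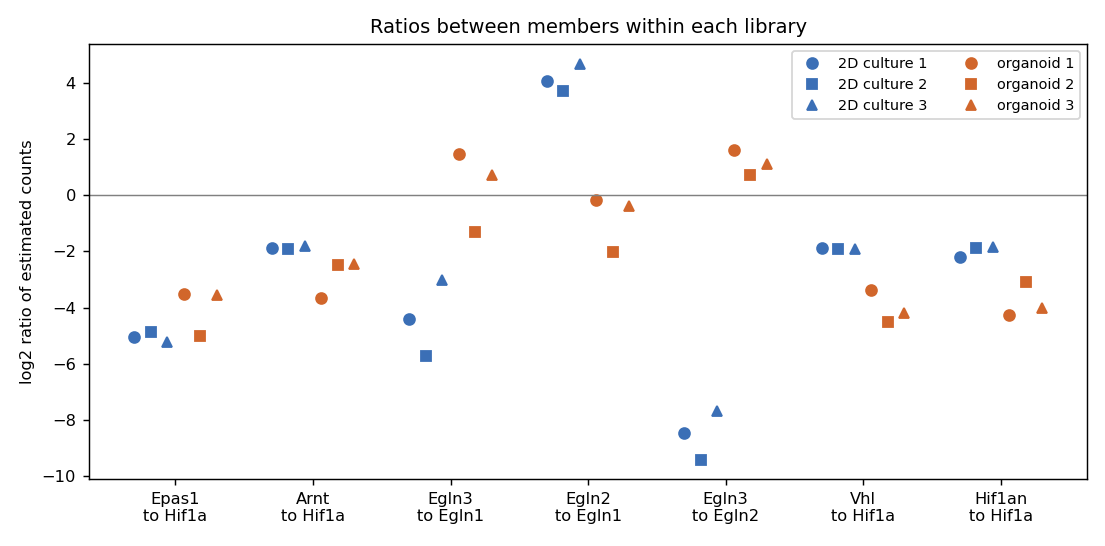
Log2 ratio of estimated counts of 2 members within each library, with 0.5 added to each count, 2D culture in blue and organoids in orange. The hydroxylase ratios differed by 4.66 to 9.67 log2 units in size between the groups, Vhl to Hif1a was nearly constant in 2D culture and lower in every organoid, and Epas1 to Hif1a overlapped through organoid 2.

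The machinery around the HIF factors was called higher or lower at shares near those of all tested genes. Among 21 partners and degradation genes, 3 rose, 4 fell and the other 14 missed the threshold. These are shares of 14.3% higher and 19.0% lower, beside 14.9% and 12.6% of all tested genes, with a median log2 fold change of -0.23 beside -0.03 over all tested genes. Arnt2, an alternative to Arnt, fell from 9.81 ± 1.38 to 0.0793 ± 0.0687 CPM, with 4 counts left in the 3 organoids, so that it passed the low-count filter only through 2D culture and had to differ. Siah2, a ubiquitin ligase for EGLN enzymes, rose by 3.02 ± 0.68 and Wsb1, a ubiquitin ligase subunit, by 1.69 ± 0.33, while Cited2, which competes with HIF for its coactivators, fell by 2.13 on the log2 scale. Siah2, Wsb1 and Cited2 lost their calls without 2D culture 1, 2 or 3, and the list then held 0 higher genes. In the ubiquitin ligase that VHL belongs to, Eloc fell by 1.15 on the log2 scale, while Elob (-0.92), Cul2 (-0.68) and Rbx1 (-0.23) did not pass. Eloc and Elob had fractional counts in 5 libraries each.

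Genes that HIF is known to switch on were higher almost throughout. Of 38 tested core HIF target genes 35 rose (92.1%, beside 14.9% of all tested genes), 0 fell and 3 (Angptl4, Pfkfb4 and Eno1) did not pass. Like the other related lists, this list was chosen with earlier results of these data known, so its share is a description. The median log2 fold change was 3.06, beside -0.03 over all tested genes. Without 2D culture 3, 27 rose. A pair of subunit isoforms of the respiratory chain that replace others under low oxygen were among the 4 with the largest changes. Ndufa4l2 rose from 1.25 ± 0.457 to 1863 ± 175 CPM (10.54 ± 0.46, edgeR adjusted p = 0.000142) and Cox4i2 from 5.47 ± 0.533 to 1233 ± 305 CPM (7.82 ± 0.34). The others were the carbonic anhydrases Ca12 and Ca9. With 0, 15 and 16 counts in 2D culture 1, 2 and 3, Ca12 could not have passed the low-count filter without its organoid counts, which favoured its call. Among promoter windows of 31 of these genes, 24 of 36 (66.7%) held either motif, beside 67.6% of all windows with 60 to 70% GC, the range that holds this list's median GC content of 65.2%. By motif, ACGTG stood in 18 of the 36 windows (50%), beside 26.997% in that GC range, and GCGTG in 19 (52.8%), beside 56.8%. No test was made of these shares.

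Genes reported as HIF-2 targets in chondrocytes split. Of 8 tested, Col10a1, Mmp13, Ihh and Vegfa rose, by 5.34 (Vegfa) to 11.59 (Ihh) on the log2 scale, and 0 fell. Ihh had 1 count in 2D culture and passed the low-count filter only through its organoid counts, so it had to differ. The ratio of its pooled levels was 4616-fold (95% exact interval 828 to 182391, counting error only). Vegfa also belongs to the core target list. The remaining genes did not pass: Mmp3 (-2.96, edgeR adjusted p = 0.15), Adamts4 (-0.69), Ptgs2 (0.03) and Mmp9 (1.60). The median of the list was 3.47, beside -0.03 over all tested genes, and 50% of it was higher, beside 14.9%.

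Other factors with the bHLH-PAS fold shared by HIF and ARNT mostly missed the threshold, as most tested genes did (9458 of 13052). Of 12 tested genes 1 fell (8.3%, beside 12.6% of all tested genes), 0 rose (beside 14.9%) and 11 missed the threshold. The median was -0.04, beside -0.03 over all tested genes. Sim2, a developmental factor that pairs with ARNT, stood at 1.90, 2.48 and 2.32 CPM in 2D culture and had 0 counts in organoids, at least 40.7-fold lower (against 3 counts over the group). It passed the low-count filter only through 2D culture, so it had to differ. Its call was lost without 2D culture 1, 2 or 3 (adjusted p = 0.0650 to 0.0675).

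Many other 2-oxoglutarate oxygenases, the enzyme class of the EGLN proteins, were higher in organoids. This list had 21 tested genes, of which 13 rose (61.9%, beside 14.9% of all tested genes), 0 fell and 8 missed the threshold, with a median of 1.22. Tet1 and Tet2, which oxidise methylcytosine in DNA, rose by 4.86 ± 0.28 and 3.25 ± 0.55. The histone demethylases Kdm6b and Kdm4b rose by 3.74 ± 0.45 and 2.79 ± 0.36, each passing in all 13 alternatives as Tet1 and Tet2 did. Without 2D culture 1, 2 or 3 the list held 5 higher genes, and with total library size 8. P4htm, a prolyl hydroxylase of the endoplasmic reticulum membrane related to the EGLN enzymes, did not pass (-0.45).

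**Figure D5:**
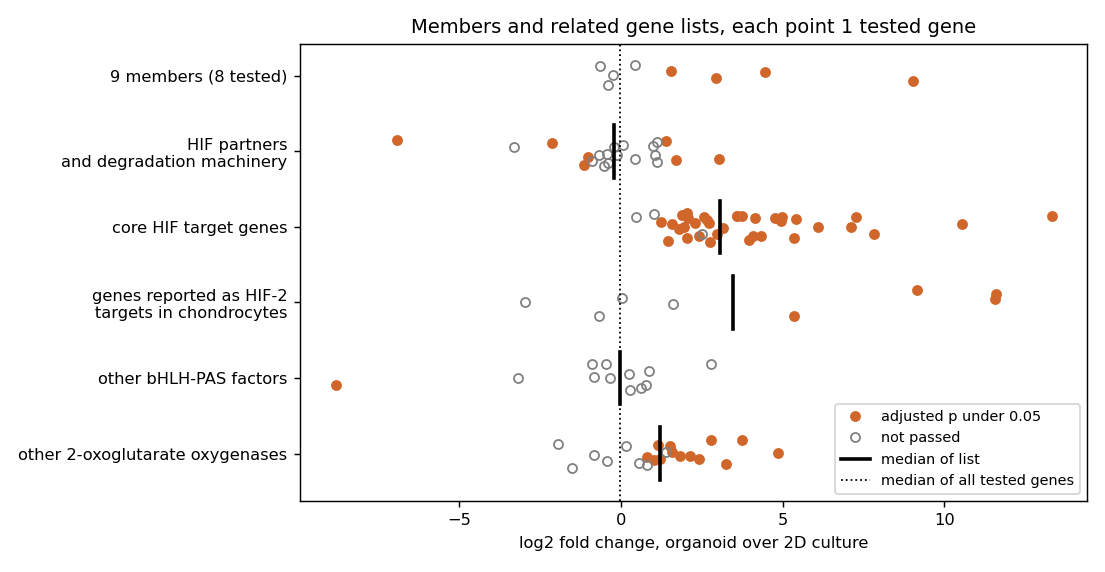
Log2 fold change, organoid over 2D culture, of every tested gene of the family and of 5 related lists, orange where the adjusted p was under 0.05, with each related list's median as a bar and the median of all tested genes as a dotted line. Core HIF targets lay to the right almost throughout (35 of 38 called higher), while partners and other bHLH-PAS factors scattered about 0.

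The genes closest in pattern were found by the root-mean-square difference of centred log2(CPM + 0.5) over the 6 libraries, among 9526 genes reaching 10 CPM in either group's mean. For Hif1a these were Anxa8, an annexin (difference 0.0645), Fstl3, a secreted activin inhibitor (0.0809), and Plod1, a lysyl hydroxylase of collagen (0.106). For Epas1 they were Slc40a1, the iron exporter (0.164), Susd5 (0.181) and Sox8, a relative of Sox9 (0.202). For Egln3 they were Snorc, a cartilage proteoglycan (0.227), Slc16a3, a lactate exporter with fractional counts in 5 libraries (0.266), and Ca9 (0.296). The 0.5 added exceeds the 2D means of Egln3 and Snorc (0.195 CPM each), which shrinks their change on this scale. Fitted log2 fold changes were 9.01 for Egln3 and 9.12 for Snorc, but 7.11 for Slc16a3 and 7.25 for Ca9. Like Egln3, Snorc passed the low-count filter only through its organoid counts, so it had to differ between the groups. Among so many candidates and only 6 libraries in 2 groups, near matches are a description.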

How the data were processed

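Per the labels' protocols, Trizol-extracted total RNA went into mRNA libraries for DNBSEQ. Tools named in the submitters' processing notes are RSEM, Bowtie2, HISAT, HISAT2 and DESeq2, with no version or role. Build, annotation and strandedness were not given in the sources used here. The authors deposited expected counts per gene, some of them fractional and none normalised, and these were rounded before testing. All 9 members matched the RefSeq tables by gene ID. Promoter coordinates are RefSeq's for GRCr8, whatever build the counts used.

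The tests ran in R 4.3.3 with edgeR 4.0.16 (filterByExpr with minimum count 10, TMM, robust quasi-likelihood F-test, Benjamini-Hochberg adjustment over all tested genes), and groups came from the sample titles. Alternatives used total library size, DESeq2 1.42.0 (size factors in edgeR, and its own test), no filter, limma 3.58.1 (voom, without and with a weight per group), a replicate block, and each library left out. The steps were tested on simulated data that had the same spread in both groups. The real groups differed in spread, so that test does not give the error rate in these data. Every pair of replicates differed by more than sampling noise (smallest chi-square over its degrees of freedom 9.1). Besides the members, the genes named were up to 4 called genes per list with at least 1 CPM and the biggest change, plus the biggest opposite one, and the 3 nearest in pattern. Genes named outside this rule (Eloc, Elob, Cul2, Rbx1, P4htm, the endothelial markers and listed genes that did not pass) were picked once their values had been seen. The members and lists were chosen with earlier results of these data known.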

Additional observations from a re-analysis of the deposited data

How the results depend on the processing

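Egln1 and Egln3 kept their direction and their call under all 13 alternatives. Hif1a and Epas1 kept their direction under all 13 and lost the call in 7 each. The sign turned for Arnt with total library size (-0.20) and for Vhl without organoid 2 (0.26) and without organoid 3 (0.01), with a range of -1.39 to 0.26 over all 6 left-out libraries. Of these, none was called. Total library size moved the median log2 fold change of all genes from -0.03 to -0.65, and gave 1063 genes higher and 3529 lower in place of 1944 and 1650 (23.1% of calls higher, against 54.1%), 2 members lower (Egln2 and Hif1an), 7 HIF partners lower, 2 bHLH-PAS factors lower, and 8 other oxygenases higher and 1 lower. With limma-voom the split was 43.9% higher, 2533 genes were lower, 1 member was lower (Egln2), and 2 bHLH-PAS factors were lower. With DESeq2, 1 member was lower (Egln2), and 5 HIF partners and 2 bHLH-PAS factors were higher. With DESeq2 and both limma-voom fits (with and without group weights), 1 reported HIF-2 target was lower.

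With 1 library left out, 703 to 2747 genes were higher and 399 to 2574 lower, with the low ends without 2D libraries, 2 to 5 members were higher and 0 to 1 lower, 0 to 5 HIF partners were higher and 1 to 6 lower, 27 to 37 core targets were higher and 0 lower, 0 to 1 reported HIF-2 targets were lower, 0 to 1 bHLH-PAS factors were higher and 0 to 3 lower, and 5 to 14 other oxygenases were higher and 0 to 3 lower. In place of 3594, the genes called numbered 1109 to 1211 without 1 of the 2D libraries and 4589 to 5321 without 1 of the organoids. The cause was not tested. No ratio changed sign or moved by more than its spread.

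Replicate numbers were shared between the groups only as numbers: the correlation of same-numbered deviations from the group means was 0.0606, 0.187 and 0.0207. With the replicate number as a block, 2730 genes were called in place of 3594 and 3 members were higher, since Epas1 did not pass (adjusted p = 0.0540), and 0 bHLH-PAS factors were lower (Sim2, adjusted p = 0.0594). Hif3a was tested only with no filter and is given no value. Depth limits Hif3a and the 2D level of Egln3.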
